A study of Mus musculus with 20 samples.

Results

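Genes of the thick ascending limb and the distal convoluted tubule were followed in bulk mRNA sequencing of kidney, with liver as the reference tissue. The 10 genes were chosen by symbol as a panel of these nephron segments, 5 for the thick limb (Umod, Slc12a1, Kcnj1, Cldn16 and Egf) and 5 for the distal tubule (Slc12a3, Pvalb, Trpm6, Calb1 and Wnk1), out of 57010 genes in the deposited table. The study treated male UM-HET3 mice, a genetically heterogeneous cross in which every animal carries its own mix of alleles, at 12 months of age. The 7c group (n = 6) received repsox, tranylcypromine, DZNep, CHIR99021, forskolin and TTNPB at 0.1 mg/kg/day each and valproate at 1 mg/kg/day. The vehicle group (n = 4) received 50% DMSO and 50% PEG300, and in both groups delivery was by a minipump under the skin for 28 days. Repsox inhibits the TGF-beta type I receptor, tranylcypromine inhibits monoamine oxidases and the histone demethylase LSD1, DZNep inhibits S-adenosylhomocysteine hydrolase, CHIR99021 inhibits GSK3, forskolin activates adenylyl cyclase, TTNPB is a retinoic acid receptor agonist and valproate inhibits histone deacetylases. Kidney held 6 7c and 4 vehicle libraries and liver the same numbers, each labelled as a biological replicate.

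The thick ascending limb takes up sodium, potassium and chloride from the tubule fluid without water, and so builds the salt gradient of the medulla and dilutes the fluid. Apical salt entry runs through the cotransporter encoded by Slc12a1, the target of furosemide, and potassium returns to the lumen through the channel encoded by Kcnj1. The voltage that this creates drives calcium and magnesium between the cells, along a path lined by the claudin of Cldn16. The distal convoluted tubule comes next and takes up sodium and chloride through the thiazide-sensitive cotransporter of Slc12a3 under control of WNK kinases, and it sets the final magnesium in urine through the channel of Trpm6. In a bulk sample, fewer cells of a segment and less RNA per cell cannot be told apart.

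Library totals ran from 27855849 to 64872451 counts in kidney and from 28383359 to 34153084 in liver. Between 75.1% and 84.2% of the counts from 5 to 20 in a library were even numbers, a pattern that counting both reads of a pair gives, and how pairs were counted is not given in the sources used here. Values are given as CPM, a gene's counts scaled to a fixed library total, with TMM scaling to correct for differences in library composition. The tissue labels were read against fixed marker lists. The summed level of 5 hepatocyte genes was 67427.7 to 99870.6 CPM in liver and 97.9 to 355.5 CPM in kidney, and that of 9 proximal tubule genes was at least 12131.2 CPM in kidney and at most 92.4 CPM in liver. A liver, that of 7c replicate 6, held 606.3 CPM of 5 skeletal muscle genes, against at most 1.79 CPM in any other liver.

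All 10 genes were detected in every kidney, and for 7 of them no liver held more than 14 counts. Umod, which encodes uromodulin, a protein of urine, had 0 counts in each of the 10 livers, and so had Slc12a1, Kcnj1 and Cldn16. Calb1 had 2 counts in 1 liver and 0 in the others. Slc12a3 ranged from 0 to 14 counts per liver, Trpm6 from 0 to 8 and Egf from 14 to 56. Wnk1, whose full-length kinase is made in most tissues, was the exception with 1692 to 2728 counts per liver. Pvalb had 655 counts in the liver of 7c replicate 6 and 0 in the other 9 livers. Parvalbumin, the calcium buffer that Pvalb encodes, is also a protein of fast skeletal muscle, and that liver was the one with skeletal muscle transcripts, with 6186 counts of Acta1 and 4414 of Myh4, which had at most 2 and 0 counts in the other livers.

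In vehicle mice alone, where both tissues were scaled together, Umod was at least 14353.5-fold higher in kidney than the level that 3 counts per library would give in liver, Slc12a1 at least 4082.9-fold, Calb1 at least 2024.7-fold, Kcnj1 at least 1131.0-fold, Pvalb at least 433.4-fold and Cldn16 at least 60.0-fold. Slc12a3 was at 944.8 CPM in kidney on this scale and had 0, 10, 0 and 6 counts in the 4 livers. Trpm6 was at 9.86 CPM and had 2, 8, 0 and 8 counts, and no fold is given for these 2 genes. Egf was 588.9-fold higher, which is 9.19 on the log2 scale (standard error 0.327, edgeR adjusted p = 1.92e-09). Wnk1 was 2.20-fold higher (1.14 on the log2 scale, standard error 0.143, edgeR adjusted p = 4.49e-05). All 10 passed the threshold of an adjusted p of 0.05, but 8 of them entered the test only through their kidney counts, and 52.2% of the 19025 genes tested passed in this contrast.

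The promoters of the cotransporter and uromodulin genes are shown because these genes had high levels in kidney and few or no counts in liver, and that of Wnk1 because it had the highest level of the 10 genes in liver. Each line gives the 250 bases before the RefSeq transcription start (build GRCm38.p6), and capitals mark matches on either strand to AAGGTCA (an oestrogen-related receptor site), TATAAA and CCAAT, none of which overlap here. The windows are chr7:119479263-119479512 (minus strand) for Umod, chr2:125152350-125152599 (plus strand) for Slc12a1, chr8:94328958-94329207 (plus strand) for Slc12a3 and chr6:120038656-120038905 (minus strand) for Wnk1.
Umod: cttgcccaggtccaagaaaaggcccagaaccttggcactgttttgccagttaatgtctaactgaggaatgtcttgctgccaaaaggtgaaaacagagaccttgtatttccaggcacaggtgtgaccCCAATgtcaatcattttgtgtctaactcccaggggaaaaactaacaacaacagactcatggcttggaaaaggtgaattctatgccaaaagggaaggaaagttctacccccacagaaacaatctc
Slc12a1: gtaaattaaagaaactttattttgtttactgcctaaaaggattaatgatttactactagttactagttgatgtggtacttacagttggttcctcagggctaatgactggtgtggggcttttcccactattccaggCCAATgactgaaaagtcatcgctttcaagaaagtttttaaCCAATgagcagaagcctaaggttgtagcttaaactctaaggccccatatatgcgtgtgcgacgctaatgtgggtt
Slc12a3: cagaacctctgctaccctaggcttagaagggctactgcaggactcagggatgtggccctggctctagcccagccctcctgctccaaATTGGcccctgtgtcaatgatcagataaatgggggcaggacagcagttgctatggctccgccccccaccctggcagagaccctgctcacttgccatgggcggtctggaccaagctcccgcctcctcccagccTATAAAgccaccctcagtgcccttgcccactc
Wnk1: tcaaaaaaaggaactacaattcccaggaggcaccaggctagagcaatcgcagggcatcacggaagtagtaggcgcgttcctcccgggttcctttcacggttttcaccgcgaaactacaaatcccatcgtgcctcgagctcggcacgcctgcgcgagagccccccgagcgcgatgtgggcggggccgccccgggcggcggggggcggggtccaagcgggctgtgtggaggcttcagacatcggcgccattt

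CCAAT lay 124 bases before Umod, 115 and 75 bases before Slc12a1 and, on the reverse strand, 164 bases before Slc12a3. With that of Kcnj1, 4 of the 11 windows of the 10 genes held it, as did 33.9% of the 32851 promoter windows of the same length in the RefSeq table. TATAAA lay 32 bases before the start of Slc12a3, was in 1 of the 11 windows and occurred in 12.4% of all windows. AAGGTCA, in 4.08% of all windows, was in none of the 11 windows of the 9 genes found in the table, and Calb1 is not among those 9. The Wnk1 window held none of the 3 motifs. It was 64.0% G and C with 26 CpG pairs, against 45.2% and 0 for Umod, 39.6% and 4 for Slc12a1, 61.2% and 3 for Slc12a3, and medians of 52.4% and 6 over all windows. A match here describes the letters and not a site in use.

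Per kilobase of the canonical transcript, which allows genes to be compared, vehicle kidneys held 751.6 ± 79.5 CPM per kb of Umod (SD, n = 4), the highest of the 10 genes. Slc12a3 followed at 252.2 ± 41.2 CPM per kb, Egf at 190.2 ± 26.2 and Slc12a1 at 118.8 ± 27.1. Calb1 was at 64.9 ± 10.6 CPM per kb and Kcnj1 at 52.0 ± 4.94. Wnk1 was at 20.7 ± 2.92 CPM per kb, Pvalb at 19.0 ± 4.18, Cldn16 at 7.05 ± 1.45 and Trpm6 at 1.80 ± 0.381. The ranges of the vehicle kidneys overlapped between neighbours in this order for Slc12a3 and Egf, Egf and Slc12a1, Calb1 and Kcnj1, and Wnk1 and Pvalb. The magnesium channel and the claudin of the divalent cation path thus had the lowest levels of the 10.

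The question put to kidney was whether 28 days of 7c changed the level of these genes. None of the 10 genes differed between 7c and vehicle kidneys in edgeR's quasi-likelihood test with Benjamini-Hochberg adjustment over 17749 genes, and none had an unadjusted p under 0.05. In that test 0.0% of all genes passed, 463 genes (2.61%) had an unadjusted p under 0.05, and the other tools called between 2 (limma-voom) and 18 genes (DESeq2), none of them among the 10. The log2 fold changes lay between -0.21 and 0.05, and 5 were above 0 and 5 below. In no gene did the 7c and vehicle ranges separate, which occurred for 0.716% of the genes tested.

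**Figure D1:**
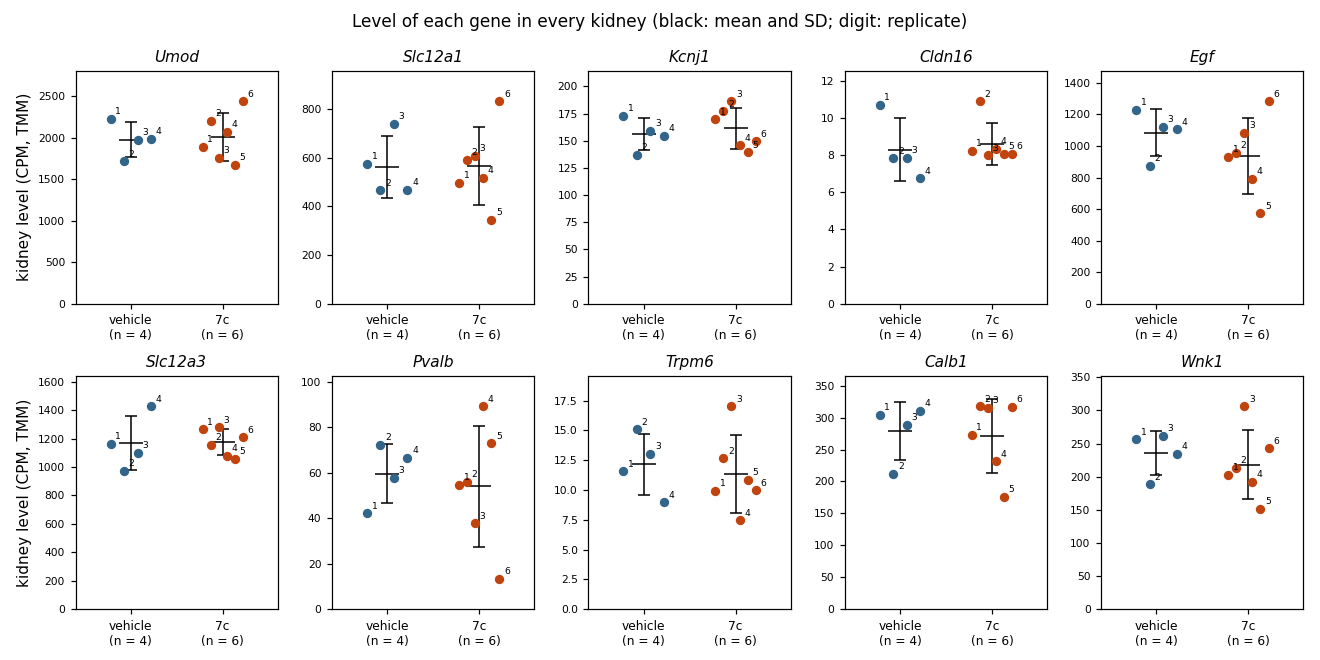
TMM-scaled level in CPM (y axis, from 0) of each of the 10 genes in every kidney, grouped by treatment (x axis), with the mean and SD in black and replicate numbers as digits. The 7c and vehicle points overlap in all 10 panels, and 7c replicate 6 is highest for Umod, Slc12a1 and Egf and lowest for Pvalb.

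Among the thick limb genes, Umod (chromosome 7, 119061934 to 119078505 of GRCm39, minus strand) was measured at 2226.8, 1715.0, 1979.5 and 1991.5 CPM in the 4 vehicle kidneys, and at 1676.2 to 2441.8 CPM with a median of 1982.0 in the 7c kidneys. The vehicle values lay inside the 7c range. The log2 fold change was 0.02 (standard error 0.129, 95% interval -0.26 to 0.30, adjusted p = 0.997 from edgeR).

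Slc12a1 (chromosome 2, 124994425 to 125071922) had 576.0, 466.7, 739.7 and 469.2 CPM in vehicle kidneys and 496.7, 591.8, 607.5, 518.3, 345.0 and 832.9 CPM in 7c kidneys. Both the lowest and the highest of the 10 values were from 7c mice, replicates 5 and 6, and they differed 2.41-fold. The log2 fold change was 0.01 with an interval of -0.46 to 0.47, wider than that of Umod. Kcnj1 (chromosome 9, 32283789 to 32310493) had the least spread over the kidneys, at 173.0, 137.0, 158.9 and 154.7 CPM in vehicle kidneys and 139.5 to 186.4 CPM, median 159.6, in 7c kidneys (log2 fold change 0.05, interval -0.20 to 0.30). Kcnj1 is also used by principal cells of the collecting duct, whose 7 markers summed to 436.5 to 712.7 CPM in 7c and 492.4 to 626.5 CPM in vehicle kidneys.

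Cldn16 (chromosome 16, 26281885 to 26301515) had 10.7, 7.83, 7.84 and 6.74 CPM in vehicle kidneys, and in 7c kidneys 5 values between 7.99 and 8.34 CPM and a value of 10.9 CPM in replicate 2. Its log2 fold change was 0.05 (interval -0.30 to 0.40). Egf (chromosome 3, 129470410 to 129549093) encodes the precursor of epidermal growth factor, which the thick limb and early distal tubule hold at the apical membrane and shed. It was measured at 1228.0, 874.4, 1122.2 and 1106.8 CPM in vehicle kidneys and at 932.5, 956.2, 1082.9, 790.4, 573.6 and 1283.8 CPM in 7c kidneys. Egf had means of 936.6 ± 243.1 (SD, n = 6) and 1082.8 ± 149.0 CPM (SD, n = 4), yet the log2 fold change of -0.21 (standard error 0.190, interval -0.62 to 0.20) had an unadjusted p of 0.292 in edgeR, and 4 of 6 7c kidneys were inside the vehicle range or above it.

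Among the distal tubule genes, Slc12a3 (chromosome 8, 95055829 to 95094170) was measured at 1164.8, 975.6, 1099.8 and 1427.5 CPM in vehicle kidneys and at 1059.3 to 1279.2 CPM, median 1183.1, in 7c kidneys. All 7c values lay inside the vehicle range. The log2 fold change was 0.01 (standard error 0.121, interval -0.25 to 0.27). The ratio of Slc12a1 to Slc12a3, the apical salt entry of one segment over that of the next, ran from 0.326 in 7c replicate 5 to 0.688 in 7c replicate 6, and vehicle kidneys ran from 0.329 to 0.673.

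Pvalb (chromosome 15, 78075314 to 78091149), a marker of the first stretch of the distal convoluted tubule, varied most. It had 42.1, 72.2, 57.7 and 66.7 CPM in vehicle kidneys and 54.8, 56.1, 37.7, 89.2, 73.1 and 13.3 CPM in 7c kidneys. The lowest value, from 7c replicate 6 with 554 counts, was 6.71-fold below the highest, in 7c replicate 4. Slc12a3 was at 1209.9 CPM in the same kidney of replicate 6, within the range of the other kidneys. The log2 fold change of Pvalb was -0.14 with an interval of -0.96 to 0.67, and without 7c replicate 6 it was 0.06. Skeletal muscle genes summed to 1.26 to 4.38 CPM in 7c and 1.18 to 2.01 CPM in vehicle kidneys.

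Trpm6 (chromosome 19, 18727089 to 18869875) was measured at 11.6, 15.1, 13.1 and 8.97 CPM in vehicle kidneys and at 7.46 to 17.0 CPM, median 10.4, in 7c kidneys (log2 fold change -0.11, interval -0.58 to 0.36), from 257 to 656 counts per library. Calb1 (chromosome 4, 15881155 to 15908085) encodes calbindin-D28k, which carries calcium through distal tubule and connecting tubule cells. It was measured at 304.5, 212.1, 289.0 and 310.8 CPM in vehicle kidneys and at 273.5, 317.6, 315.3, 231.8, 176.0 and 317.2 CPM in 7c kidneys (log2 fold change -0.04, interval -0.42 to 0.34). Wnk1 (chromosome 6, 119900930 to 120015660) encodes a kinase that acts on the cotransporters through SPAK, and the distal tubule also makes a short form without kinase activity from a start of its own, which gene counts cannot separate from the long form. It had 256.7, 188.6, 261.4 and 234.1 CPM in vehicle kidneys and 202.6, 213.6, 306.1, 192.2, 151.5 and 242.8 CPM in 7c kidneys (log2 fold change -0.11, interval -0.49 to 0.27). In these 3 genes the vehicle values lay inside the 7c range. Exons of Umod, Egf and Wnk1 overlap long noncoding RNAs on the opposite strand, and the strand setting of the counting is not given in the sources used here.

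**Figure D2:**
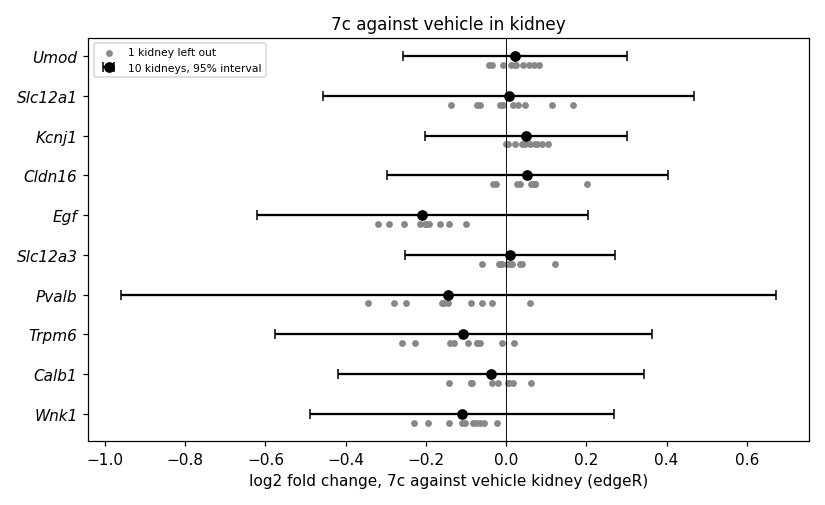
Log2 fold change of 7c against vehicle in kidney from edgeR (x axis) for each gene (y axis), with the 95% interval in black over 10 kidneys and grey points for the fits with 1 kidney left out. Every interval crosses 0, the widest being that of Pvalb (-0.96 to 0.67).

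In liver only Egf and Wnk1 had enough counts to be tested. Egf was at 0.989 ± 0.452 CPM in 7c livers (SD, n = 6) and 1.20 ± 0.467 CPM in vehicle livers (SD, n = 4), with a log2 fold change of -0.28 (unadjusted p = 0.534 in edgeR). Wnk1 was at 67.1 ± 10.6 and 69.4 ± 5.87 CPM, with a log2 fold change of -0.05 (unadjusted p = 0.677 in edgeR). Neither passed, and 0.00666% of 15012 liver genes did. The difference between the 7c effect in kidney and in liver was 0.07 on the log2 scale for Egf (unadjusted p = 0.857) and -0.05 for Wnk1 (unadjusted p = 0.819) in edgeR's interaction test, where 0.00706% of 14163 genes passed.

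Although treatment did not separate the kidneys, the 10 genes varied from kidney to kidney by different amounts. The coefficient of variation over 10 kidneys was 10.6% for Kcnj1, 11.1% for Slc12a3, 12.4% for Umod and 15.4% for Cldn16. It was 18.5% for Calb1, 19.8% for Wnk1, 21.5% for Egf, 24.7% for Trpm6 and 38.0% for Pvalb, with Slc12a1 between the last 2. The median over 10813 genes of at least 5 CPM was 17.3%. The kidneys of 7c replicate 5 and vehicle replicate 2 were the 2 lowest of the 10 for 6 genes, Umod, Slc12a1, Kcnj1, Slc12a3, Calb1 and Wnk1, and each was the lowest of its own group for Egf. For how many of all tested genes these 2 kidneys were lowest was not tested, so 6 of 10 is not read as particular to these genes.

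Of the 45 pairs among the 10 genes, 3 were correlated over the 10 kidneys past an adjusted p of 0.05 (log2 CPM, permutation tests, two-sided, adjusted over the 45 pairs). How often pairs of other genes pass was not tested, so 3 of 45 is not read as particular to these genes. Egf and Calb1 had Pearson r = 0.90 (permutation p = 0.00101, adjusted p = 0.018) and Spearman rho = 0.70 (permutation p = 0.0308, adjusted p = 0.126). Egf and Wnk1 had r = 0.87 (permutation p = 0.0012, adjusted p = 0.018) and rho = 0.82 (permutation p = 0.00598, adjusted p = 0.126). Calb1 and Wnk1 had r = 0.85 (permutation p = 0.00108, adjusted p = 0.018) and rho = 0.67 (permutation p = 0.0398, adjusted p = 0.134). These 3 genes are of different segments or roles, a growth factor precursor, a calcium buffer and a kinase. Without the 2 kidneys farthest from the median of the first gene of each pair, r was 0.67, 0.69 and 0.63, with exact permutation p = 0.0419, 0.0576 and 0.0911. With any 1 kidney left out, r was at least 0.77, 0.75 and 0.72. No pair passed with Spearman's rho, within the 7c kidneys alone, or without 7c replicate 1, 7c replicate 5 or vehicle replicate 2, and 5 pairs passed without 7c replicate 6 or vehicle replicate 4.

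Slc12a1 and Slc12a3, the cotransporters of the 2 segments, had r = 0.18 (adjusted p = 0.772, permutation test), and Slc12a1 and Kcnj1, which work together at the apical membrane of the thick limb, had r = 0.38 (adjusted p = 0.492, permutation test). Slc12a1 and Egf had r = 0.81 (adjusted p = 0.0524, permutation test). No pair with Pvalb passed, and its r ran from -0.09 with Cldn16 to -0.71 with Slc12a1 (adjusted p = 0.110, permutation test).

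The share of a library's counts on genes with a canonical transcript of 5000 bases or more, 3769 of 17697 genes, was correlated with the level of 5 of the 10 genes past an adjusted p of 0.05. The lowest of these 5 had r = 0.71, a size that 39.0% of all 17749 tested genes and 53.5% of the 10813 genes of at least 5 CPM reached in either direction. In the positive direction, that of all 5, the shares were 20.3% and 27.8%. Whether 5 of 10 differs from these shares was not tested, and it is not read as a result about these genes. The share of counts on long transcripts was 13.1% in vehicle replicate 2, 13.3% in 7c replicate 5 and between 15.0% and 18.02% in the other 8 kidneys. Its r was 0.91 with Wnk1 (transcript of 11376 bases, permutation p = 7e-05, adjusted p = 0.0007 over 10 genes, rho = 0.96 with permutation p = 3e-05, adjusted p = 0.0003), 0.89 with Calb1 (permutation p = 0.00151, adjusted p = 0.00755, rho = 0.60 with permutation p = 0.0735, adjusted p = 0.115) and 0.82 with Egf (permutation p = 0.00284, adjusted p = 0.00947, rho = 0.78 with permutation p = 0.0104, adjusted p = 0.0518). Without those 2 kidneys, r was 0.91 for Wnk1 (exact permutation p = 0.00169), 0.65 for Calb1 (exact permutation p = 0.0705) and 0.79 for Egf (exact permutation p = 0.02). Long genes such as Wnk1 and Egf are part of the share itself. Slc12a1 (r = 0.71, permutation p = 0.0224) and Kcnj1 (r = 0.71, permutation p = 0.0235) had an adjusted p of 0.0469 each, rho of 0.71 (permutation p = 0.0271) and 0.70 (permutation p = 0.0304), both with an adjusted p of 0.0761, and r of 0.40 and 0.32 without those 2 kidneys (exact permutation p = 0.322 and 0.433). The other 5 did not pass. Umod had r = 0.51 (adjusted p = 0.198, permutation test) and -0.19 without those 2 kidneys, Slc12a3 had 0.66 (adjusted p = 0.0635, permutation test) and 0.24, and Pvalb had -0.44 (adjusted p = 0.258, permutation test) and -0.30. For Cldn16 and Trpm6 r was 0.08 and 0.07, and -0.19 and 0.66 without them (exact permutation p = 0.652 and 0.072). After the trend of level on transcript length was removed in each kidney, r was 0.83 for Egf and Calb1, 0.69 for Egf and Wnk1 and 0.68 for Calb1 and Wnk1, and 0 of 45 pairs passed. The part of RNA length or quality in the levels was not tested.

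**Figure D3:**
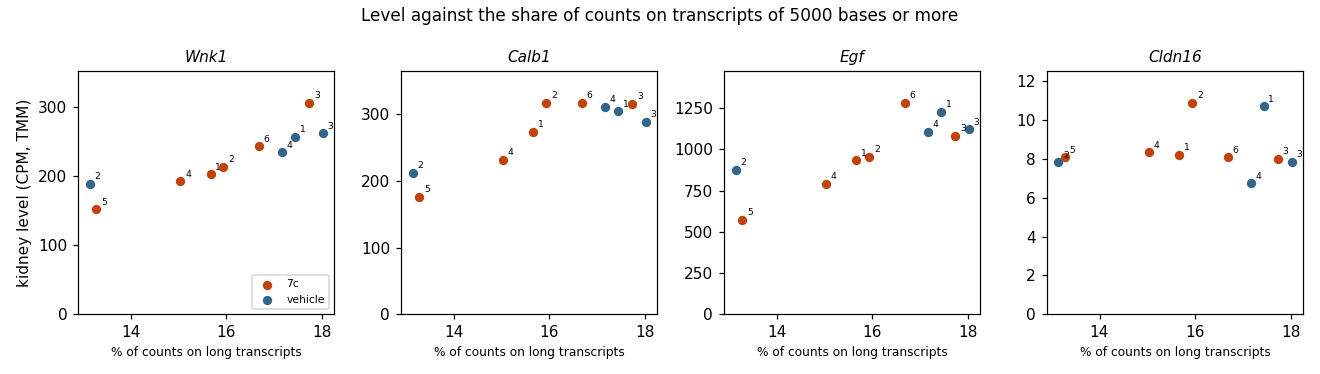
Level in CPM (y axis, from 0) of Wnk1, Calb1, Egf and Cldn16 in each kidney against the percent of its counts on transcripts of 5000 bases or more (x axis), orange for 7c and blue for vehicle, digits giving the replicate. Vehicle replicate 2 and 7c replicate 5 sit apart at 13.1% and 13.3% with low Wnk1 and Calb1, and Cldn16 shows no slope (r = 0.08).

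**Figure D4:**
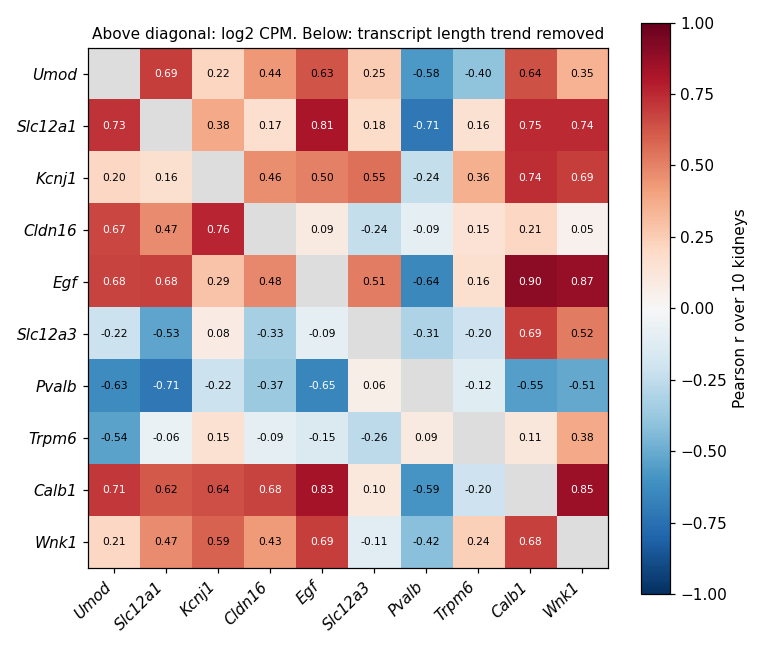
Pearson r over 10 kidneys for every pair of the 10 genes (both axes), on log2 CPM above the diagonal and after removal of the transcript length trend below it, coloured from -1 (blue) to 1 (red). Egf, Calb1 and Wnk1 have the highest values above the diagonal (0.85 to 0.90), and r of Pvalb with the other 9 genes runs from -0.71 to -0.09 there, with no pair past the threshold.

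The genes whose profile over the 10 kidneys was most like the mean scaled level of the 5 thick limb genes were Pde12, Kansl1, Pcdhgc3, Pwwp2a and Lamp1, with r of 0.94 to 0.96. For the 5 distal tubule genes they included Gsr, Slc22a29, Atp6v0a4 and Sall2, with r of 0.95 to 0.96. All of these named genes also had an r of 0.75 to 0.87 with the share of counts on long transcripts. The median absolute r with that share was 0.60 over all 17749 tested genes and 0.74 over the 10813 genes of at least 5 CPM. The named genes were picked for the highest r of all tested genes, so their r of 0.94 to 0.96 is high by selection.

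Other genes of the 2 segments were read from 6 lists with 65 genes, of which 62 were tested in kidney and Avpr2, Cldn14 and Areg had too few counts. None of the 62 passed the threshold, 31 were higher and 31 lower in 7c kidneys, and their median log2 fold change was -0.01, as it was for all genes tested (-0.01). The 2 genes with an unadjusted p under 0.05 were Irx1 and Prom1, 3.23% of 62 against 2.61% of all genes. The ranges of 7c and vehicle overlapped in every one of the 62.

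Of 10 tested genes for thick limb salt transport, 6 were higher and 4 lower, with a median of 0.11. Fxyd2, a small regulatory subunit of the sodium pump, was at 1623.4, 4410.4, 1530.4 and 1879.3 CPM in vehicle kidneys and at 1624.3 to 4494.6 CPM in 7c kidneys, and its highest values were those of vehicle replicate 2 and 7c replicate 5, the kidneys with the lowest share of counts on long transcripts. Its log2 fold change was 0.12 with an interval of -0.60 to 0.84.

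Of 6 genes for the divalent cation path of the thick limb, 4 were higher and 2 lower with a median of 0.09. Cldn10, the claudin that lets sodium pass between the cells, had a log2 fold change of 0.03 (interval -0.25 to 0.30). Pth1r, the receptor of parathyroid hormone, which the proximal tubule also carries, had 0.14 (interval -0.32 to 0.61), with its highest levels in the same 2 kidneys, 1251.2 and 1297.5 CPM.

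The 14 identity genes, most of them transcription factors, were 7 higher and 7 lower with a median of -0.01. Irx1, a homeobox factor of intermediate nephron segments, was at 35.2, 50.9, 31.6 and 30.3 CPM in vehicle kidneys and at 46.1, 45.3, 36.5, 56.9, 53.0 and 49.6 CPM in 7c kidneys. The groups overlap through vehicle replicate 2. Its log2 fold change was 0.37 (interval 0.01 to 0.73, unadjusted p = 0.0442, adjusted p = 0.997 from edgeR). Tmem52b had a log2 fold change of 0.02.

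The 12 genes that regulate the Slc12a3 cotransporter through WNK kinases and SPAK were 6 higher and 6 lower with a median of -0.02. Wnk4, a WNK kinase of the distal nephron, had a log2 fold change of 0.17 (interval -0.21 to 0.56) and Cul3, the scaffold of the ligase that degrades WNK kinases, -0.10 (interval -0.34 to 0.13). Of 12 genes of distal magnesium and calcium transport 7 were higher and 5 lower, with a median of 0.04. Kl, the co-receptor of FGF23, had -0.21 (interval -0.69 to 0.27), with 346.4 CPM in 7c replicate 5 and 423.2 CPM in vehicle replicate 2, the lowest values of their groups.

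Of 9 tested genes in the list named for EGF processing and receptors, 2 were higher and 7 lower with a median of -0.17. That list also holds the ligands Hbegf and Tgfa, the prominins Prom1 and Prom2, and Hpn, so its median does not describe EGF processing alone. Prom1, a glycoprotein of membrane protrusions, was at 55.9, 94.9, 64.4 and 62.7 CPM in vehicle kidneys and at 36.3, 59.5, 50.2, 41.5, 54.0 and 43.5 CPM in 7c kidneys. In 5 of 6 7c kidneys it was below the vehicle range. Its log2 fold change was -0.55 (interval -0.92 to -0.18, unadjusted p = 0.00711, adjusted p = 0.997 from edgeR). Hpn, which encodes hepsin, a protease that cleaves uromodulin for release, had 0.20 (interval -0.18 to 0.58).

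**Figure D5:**
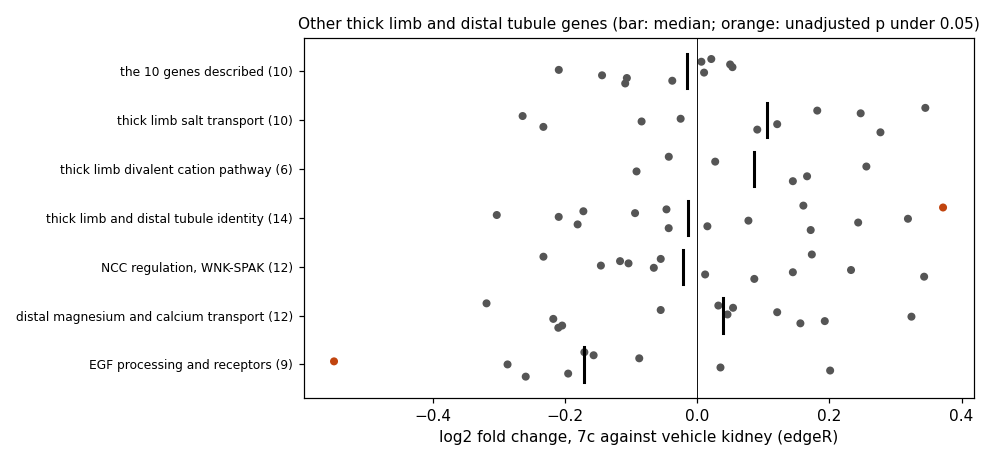
Log2 fold change of 7c against vehicle in kidney (x axis) for the 10 genes and for the tested genes of 6 lists (y axis, number tested in brackets), 1 point per gene, black bars for medians and orange for an unadjusted p under 0.05. The points lie on both sides of 0 in every list, and Irx1 (0.37) and Prom1 (-0.55) are the orange points.

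These counts moved with single libraries. Irx1 had an unadjusted p of 0.05 or more in 8 of the 10 fits with 1 kidney left out, up to 0.137 in edgeR, and also with the replicate block (0.091) and with both tissues in 1 fit (0.0742), where none of the 62 genes had an unadjusted p under 0.05. Without 7c replicate 3, 6 of the 62 genes had an unadjusted p under 0.05, 3 higher and 3 lower, which is 9.68% against 4.39% of all genes in that fit. Without vehicle replicate 2, 15 of the 62 genes had an unadjusted p under 0.05, 12 of them higher in 7c kidneys, which is 24.2% against 10.3% of all genes in that fit, and the lowest adjusted p was 0.476 in edgeR. The 2 lowest p values were those of Ppp1r1b (log2 fold change 0.68) and Irx1 (0.57), named for those values, and none of the 10 genes above had an adjusted p under 0.528 there or in any other fit. With both low kidneys left out, 14 of the 62 had an unadjusted p under 0.05, which is 22.6% against 8.56% of all genes.

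Markers of other cell types were read beside these genes. The summed level of 7 adipocyte genes was 58.5 to 153.5 CPM in 7c and 37.4 to 49.6 CPM in vehicle kidneys, and all 7 were higher with an unadjusted p under 0.05. Of 5 hepatocyte genes 2 were lower at that level, and of 7 principal cell genes 1 was higher. Among all 17749 genes tested, 463 (2.61%) had an unadjusted p under 0.05 in this edgeR fit, and 0 passed the adjusted threshold. In the other 11 lists no gene had an unadjusted p under 0.05. Of these, markers of the proximal tubule S1 and S2 segments summed to 12131.2 to 13830.4 CPM in 7c and 12568.2 to 13791.9 CPM in vehicle kidneys, S3 to 5649.3 to 7400.5 and 5827.2 to 8245.2 CPM, and intercalated cells to 302.4 to 349.6 and 283.2 to 329.4 CPM. The inner medulla and thin limb list summed to 187.4 to 312.3 and 146.6 to 266.9 CPM, podocyte genes to 250.7 to 288.2 and 243.1 to 305.2 CPM, and macula densa genes to at most 3.17 and 2.58 CPM. Endothelium summed to 304.3 to 421.5 and 302.9 to 427.6 CPM, blood to 470.9 to 2259.1 and 308.2 to 1309.2 CPM, adrenal gland to at most 5.21 and 4.71 CPM, and tubular injury to 769.0 to 832.2 and 667.8 to 861.5 CPM. The part of fat cells in the levels of the 10 genes was not tested.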

How the data were processed

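Polyadenylated RNA of 10 kidneys and 10 livers was sequenced as stranded libraries. Per the labels, the authors aligned reads to GRCm39 with STAR 2.7.11b and counted them on genes with featureCounts 2.0.6, and the deposited values are raw counts. The annotation release, strand setting and treatment of reads with several positions are not given in the sources used here. Symbols, positions and transcript lengths were read from GENCODE vM39, where 56310 of 57010 identifiers were found, and promoters from a RefSeq table (GRCm38.p6).

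A gene was tested where 50% or more of the samples of a tissue had 10 or more counts, with edgeR 4.0.16 (R 4.3.3), TMM scaling, the quasi-likelihood F-test and Benjamini-Hochberg adjustment at 0.05. Intervals are 95% intervals of the same fit. Correlations used log2 CPM (prior count 2) and 100000 permutations (scipy 1.17.1), exact where fewer than 10 kidneys were left. The floor was 3 counts per library, which covers counting error only. The scripts were tested on simulated data. As alternatives, each replicate was left out in turn, a replicate block was added, both tissues were fitted together, the filter was dropped or replaced by filterByExpr, and limma-voom (limma 3.58.1), DESeq2 1.42.0, the likelihood ratio test and RLE size factors were used. Halved counts, removal of the length trend in 20 bins, and leaving out 7c replicate 5 with vehicle replicate 2 were added after the data were seen.

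The genes, the lists and the motifs were chosen with earlier results of these data known. Of the lists, genes with an unadjusted p under 0.05 and the 2 with the highest mean CPM in vehicle kidneys were named, and for each segment the 5 genes most like its profile. Of the marker lists, summed levels were read, for proximal tubule, collecting duct, inner medulla and thin limb, podocyte, macula densa, endothelium, adipocyte, adrenal gland, skeletal muscle, hepatocyte, blood and tubular injury. The values of some genes that this rule selects are not reported here.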

Additional observations from a re-analysis of the deposited data

Results flagged for a closer look

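In the 30 groups of a gene, tissue and treatment that held a value above 0, the highest and lowest samples were read for a gap to the rest, as a share of the range of the group, above Dixon's 95% critical value for its size. Of these, 5 groups had such a sample, and by that definition chance gives about 1 in 20 among groups whose values spread. For Pvalb and Calb1 in liver the sample was the only one above 0, where the gap equals the range by construction. In kidney it was Cldn16 in 7c replicate 2, at 10.9 CPM (363 counts), with the other 7c kidneys at or under 8.34 CPM. In liver, Pvalb stood at 23.6 CPM in 7c replicate 6 and at 0 in the other livers, and that library also held the skeletal muscle transcripts. Wnk1 was at 87.7 CPM in the liver of 7c replicate 2. A pair of liver values rested on few counts, 0.199 CPM of Trpm6 in 7c replicate 3 (6 counts) and 0.0722 CPM of Calb1 in 7c replicate 5 (2 counts).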

How the results depend on the processing

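The count of 0 genes of the 10 past the threshold held in all 20 alternatives of the kidney comparison, 18 in liver and 17 for the difference between tissues, and the count of 10 held in all 11 for kidney against liver. The 3 correlated pairs became 0 with Spearman's rho, 0 in 7c kidneys only, 0 with the transcript length trend removed and 0 without 7c replicate 5 and vehicle replicate 2 together, and 0 to 5 with 1 kidney left out. The cause was not tested. The log2 fold change of Slc12a1 was -0.0164 with limma-voom and -0.00307 with the replicate block, that of Calb1 was 0.0317 with the replicate block, and without 7c replicate 5 and vehicle replicate 2 those of Slc12a3 and Trpm6 were -0.0388 and 0.0228. Leaving out 1 kidney gave -0.0426 to 0.0828 for Umod, -0.137 to 0.166 for Slc12a1, -0.000452 to 0.103 for Kcnj1, -0.0324 to 0.202 for Cldn16, -0.061 to 0.122 for Slc12a3, -0.346 to 0.0584 for Pvalb, -0.26 to 0.0204 for Trpm6 and -0.142 to 0.0612 for Calb1. Egf and Wnk1 stayed below 0 in each, at -0.321 to -0.101 and at -0.23 to -0.0228.

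Kidney and liver of the same replicate number deviated together with a correlation over 0.1 for 7 of 10 numbers. Among livers of its own treatment group, each of these kidneys correlated best with that of its own number. That is a hint from the data that the numbers mark mice. The other 3 numbers were at 0.0115 to 0.0627, and as the labels do not state it and not every number was over 0.1, the numbers were not taken as pairs. Within kidney, 7c and vehicle mice of the same number correlated at -0.0197, -0.0148, 0.293 and -0.0641. With the replicate block 0 genes of the 10 and 0 of the 62 passed in kidney, and 381 genes had an unadjusted p under 0.05 against 463. That block ties 7c and vehicle mice of the same number, for which the labels give no basis. As 7c replicates 5 and 6 have no vehicle kidney of their number, they do not inform its treatment effect. Genes past the threshold numbered 0 with edgeR, 18 with DESeq2, 14 with the likelihood ratio test, 2 with limma-voom, 3 without a filter and 18 with both tissues in 1 fit. In liver, DESeq2 called 6 and the likelihood ratio test 7 genes. Halving the counts moved no call among the 10 genes in kidney, and 8 of the 10 were not tested in liver, 4 of them with 0 counts in every library.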
